A study of Mus musculus with 45 samples.

Results

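The genes described here carry retinol to cells, turn it into retinoic acid and break retinoic acid down. They are 9 gene rows of the 24422 in the count table, taken by symbol: Ttr and Rbp4, Stra6, Crabp1 and Crabp2, Aldh1a1, Aldh1a2 and Aldh1a3, and Cyp26a1. All 9 symbols had a row. The genes were chosen by their function and with results of these data known, and were thus in part selected on measured values, the counts behind the genotype difference of Ttr in whole uterus among them. The values below are therefore a description of its members, and no p-value is given for them.

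Molecule counts were obtained from female CD-1 mice, either wildtype (WT) or carrying the Plag1 knockout (KO) allele on both chromosomes, in which lacZ takes the place of the open reading frame of Plag1. Plag1 encodes a zinc finger transcription factor. The comparison of genotypes asks whether the maternal tract differs without it. Every mouse, WT or KO, was a sexually mature young female that had been superovulated with 5 IU PMS and, 2 days later, 5 IU hCG, and was killed the next day, so no untreated uterus is included. The superovulated females were 1 to 3 months old, and they were mated with WT males unless oocytes were to be collected. Which of the uterus donors had been mated was not given in the sources used here. The knockout was present in the whole animal. Whole horn tissue (uterus), scraped mucosa (endometrium) and the muscle left after scraping (myometrium) came from each of 14 mice, which gave 6 groups of 7 mice: WT uterus, KO uterus, WT endometrium, KO endometrium, WT myometrium and KO myometrium. A mouse keeps its number in all 3 tissues. WT mice were numbers 1, 3, 5, 7, 8, 10 and 12, and KO mice 2, 4, 6, 9, 11, 13 and 14.

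Retinol leaves the liver bound to retinol binding protein 4 (Rbp4), which travels in plasma with transthyretin (Ttr), a carrier that also binds thyroxine. Stra6 is a membrane receptor that takes retinol from Rbp4 into the cell. Inside, retinol is oxidised to retinal by alcohol and retinol dehydrogenases and then to retinoic acid by the retinaldehyde dehydrogenases Aldh1a1, Aldh1a2 and Aldh1a3. Crabp1 and Crabp2 bind retinoic acid in the cytosol, and Crabp2 passes it to the nuclear receptors (Rar, with Rxr as partner). Cyp26a1, a cytochrome P450, hydroxylates retinoic acid and so ends its action. In rodents the uterine lining makes and breaks down retinoic acid under the influence of ovarian hormones.

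The promoters of Cyp26a1 and Aldh1a2 are printed because these enzymes remove and make retinoic acid and both were called between the layers. Each is the 250 bases before the transcription start, 5′ to 3′ in the direction of the gene, from RefSeq (build GRCm38.p6), and each matched the mm9 genome (NCBIM37), the build of the counts, at a single place. The Cyp26a1 window is chr19:37772048-37772297, plus strand, and the Aldh1a2 window is chr9:71063346-71063595, plus strand. Capitals mark a retinoic acid response motif of the DR5 kind: a direct repeat, spaced by 5 bases, of the receptor hexamer in any of its 4 usual spellings, AGTTCA being a common spelling, searched on both strands.
Cyp26a1: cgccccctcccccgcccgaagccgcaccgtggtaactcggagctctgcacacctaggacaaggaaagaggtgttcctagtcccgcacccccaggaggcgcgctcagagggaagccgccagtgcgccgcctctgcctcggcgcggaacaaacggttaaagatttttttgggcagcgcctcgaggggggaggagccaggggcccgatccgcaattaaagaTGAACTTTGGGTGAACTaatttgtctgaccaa
Aldh1a2: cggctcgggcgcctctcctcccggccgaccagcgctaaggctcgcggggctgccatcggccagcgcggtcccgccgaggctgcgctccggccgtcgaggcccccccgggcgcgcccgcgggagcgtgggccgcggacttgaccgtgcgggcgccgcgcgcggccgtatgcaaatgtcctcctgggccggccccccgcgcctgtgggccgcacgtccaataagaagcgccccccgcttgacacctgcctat
The Cyp26a1 window held 1 DR5, read on the minus strand, from base -32 to base -16 before the start, and both of its hexamers were AGTTCA. The Aldh1a2 window held none. A DR5 was present in 29 of 32851 promoter windows of this length (0.0883%), and AGTTCA alone in 11.8% of them. Among the 11 windows of the 6 members that had an entry and were searched, the DR5 of Cyp26a1 was the only one. These matches describe letters in a window, and binding was not measured.

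The 45 libraries held 264095 to 1232992 counts each, spike-ins included. KO mouse 13 had 3 endometrium libraries and WT mouse 12 had 2 myometrium libraries, and these were summed to 1 sample per mouse. Levels are given as CPM, which puts libraries of unequal depth on the same total, with TMM factors over the 42 samples, as mean ± SD with n = 7 mice. A level of 3 counts was taken as the floor of a library, which was 2.45 to 11.7 CPM before scaling, depending on depth. Plag1 itself had at most 1 count in any library of either genotype, so it could not check the labels. Epithelial markers (Krt8, Krt18, Krt19, Epcam and Cdh1) and smooth muscle markers (Acta2, Des, Myh11 and Cnn1) were present in all groups. The endometrium sample of KO mouse 13 carried 8223 CPM of the 4 muscle markers, against 199 to 946 in the other KO endometrium samples. The endometrium of WT mouse 3 carried 6974. The endometrium of WT mouse 8 carried 5106 CPM of 3 oviduct markers, almost all of it Ovgp1, against 7.75 to 165 in the other WT mice. In WT mouse 5 the myometrium carried 714 CPM of epithelial markers, against 74.8 to 247 in the other WT mice. Values without these samples are given for some layer and genotype results below, and interaction values without them are not given.

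Of the 9 genes, 4 were higher in endometrium than in myometrium: Ttr, Stra6, Aldh1a2 and Cyp26a1. The same 4 passed an adjusted p of 0.05 (edgeR quasi-likelihood test, Benjamini-Hochberg over all genes) in WT mice and in KO mice, none was lower, and DESeq2 also called 4 in each, against 14.4% of the genes it tested in WT and 20.7% in KO. They were the same 4 in WT without mouse 3 altogether. Scaling by the spike-ins, which moved all genes towards endometrium, called the same 4 in WT and added Rbp4 and Crabp2 in KO. The background was 13.2% of 13227 genes tested in WT (6.81% higher and 6.39% lower in endometrium) and 19.3% of 12969 in KO (10.6% higher and 8.71% lower). Of all genes called, 51.6% were higher in endometrium in WT and 54.9% in KO, and with spike-in scaling 67.3% and 86.3%. The filter on low counts kept 8 of the 9 in each comparison, all but Aldh1a3. Their median log2 fold change was 1.89 in WT and 1.98 in KO, and over all genes tested it was 0.01 and 0.08. In the same fits 6 members in KO had an unadjusted p under 0.05, against 31.0% of all genes tested. In WT the 4 called members and Aldh1a1 did, against 24.8%. Aldh1a1 had 1 count in WT myometrium and passed the filter through endometrium, so it is not counted. The WT median above includes it.

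Between genotypes 0 members were past the threshold in any tissue by edgeR, and 0 by DESeq2. The background was 0% by edgeR in uterus, endometrium and myometrium, while DESeq2 called 0.00769% of genes (1 gene, not a member) in endometrium and 0% in uterus and myometrium. Genes at an unadjusted p under 0.05 made up 5.64% of 12959 in uterus. They made up 5.20% of 13004 in endometrium and 4.22% of 12991 in myometrium. Among members, Crabp2 and Aldh1a2 in endometrium and Rbp4 in myometrium were under 0.05. Ttr in uterus also was, but the list was chosen in part on those counts, so it was no test. Aldh1a1 in myometrium was under it too, but it passed the filter there only through the KO samples and is not counted. The median log2 fold change of the 8 members, KO over WT, came to -0.46 in endometrium, and over all genes to 0.02. No median is given for uterus and myometrium, where it would include Ttr and Aldh1a1, set aside above. A difference of the layer effect between genotypes was tested as an interaction over 14314 genes. With either tool 0% of genes and 0 members were past the threshold. Aldh1a1 was among the 4.60% of genes with an unadjusted p under 0.05, a value that rests on 1 count in WT myometrium.

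**Figure D1:**
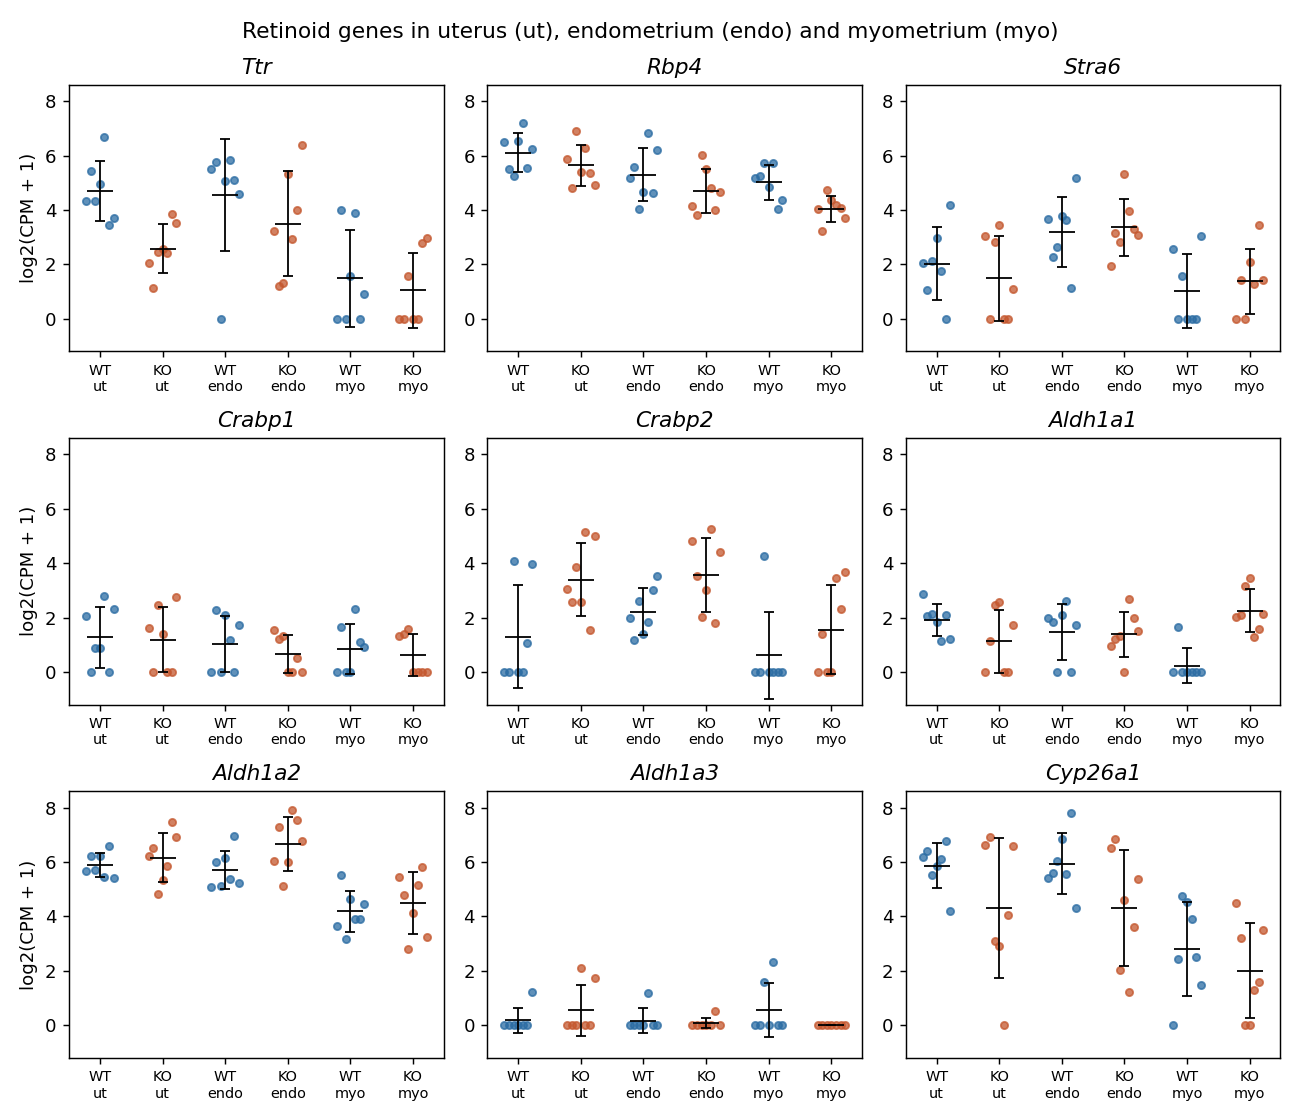
Level of each gene in each of the 6 groups, as log2(CPM + 1), with a point for each mouse (7 per group, WT blue, KO orange), a bar at the mean and whiskers of 1 SD. Ttr, Stra6, Aldh1a2 and Cyp26a1 sit lower in both myometrium groups than in the endometrium groups, and Crabp1, Aldh1a1 and Aldh1a3 lie near the floor of 3 counts.

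Ttr, the plasma carrier that accompanies Rbp4, was highest in WT uterus and WT endometrium and lowest in myometrium. In WT uterus it measured 9.80, 19.2 and 102 CPM in the lowest, median and highest mouse, and in KO uterus 1.22, 4.52 and 13.5. The means were 33.4 ± 32.1 and 6.00 ± 4.34 CPM (SD, n = 7 each), a log2 fold change of -2.49 ± 0.53 (SE). This was the widest gap between genotypes of any member in uterus, but these counts were among the values used to choose the genes. The highest WT sample, mouse 8, pulled the mean up, and without it the log2 fold change was -1.89. The groups overlapped: 5 WT mice lay above every KO mouse and 5 KO mice below every WT mouse, and the other 4 were WT mice 10 and 12 and KO mice 13 and 14.

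All 4 of those overlapping mice were in the same part of the library plate. Rows are the letters of the library names, read here as plate positions. Mice 1 to 8 (5 WT and 3 KO) were in plate rows A to C and mice 9 to 14 (2 WT and 4 KO) in rows D to F. Rows A and D held uterus, B and E myometrium, and C and F endometrium, apart from repeat libraries of KO mouse 13 and WT mouse 12. In the comparisons of layers, layer and row therefore cannot be told apart. Within rows A to C the log2 fold change of Ttr in uterus was -3.83, from means of 42.4 and 2.95 CPM, while rows D to F gave -0.40, from 10.9 and 8.30. The uterine difference of Ttr was thus carried by the mice of rows A to C, with 2 WT mice only in the other rows. The summed level of the gland markers Foxa2, Prss28 and Prss29 also ran lower in KO uterus, at 58.8 to 1867 CPM with a median of 478, than in WT uterus, at 238 to 7655 with a median of 1037. The part of gland RNA in the Ttr values was not tested. In bulk tissue fewer cells of a type and less RNA per cell cannot be told apart, here and in the results that follow.

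In endometrium Ttr measured 0, 33.5 and 55.9 CPM (lowest, median, highest) in WT and 1.32, 8.47 and 83.7 in KO. The single WT mouse without a count was mouse 5, in a sample with 127 CPM of gland markers, the lowest of the WT endometrium samples, and the highest KO mouse was number 14. The groups overlapped almost wholly, with a log2 fold change of -0.77 ± 0.63 that was -1.59 without KO mouse 14. It was -3.18 in rows A to C and 0.30 in rows D to F. In myometrium 3 WT mice and 4 KO mice had no Ttr count, and the highest values were 15.2 CPM in WT and 6.82 in KO.

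Ttr was higher in endometrium than in the myometrium of the same animal in 6 of 7 WT mice, with mouse 5 at 0 in both, and in 6 of 7 KO mice. The log2 fold change was 3.14 ± 0.66 in WT and 3.23 ± 0.87 in KO. Liver and choroid plexus make much of the body's transthyretin, and their markers were measured in the same samples. Alb had a single count in 2 of the 42 samples and none elsewhere, the 5 hepatocyte markers (Alb, Apoa1, Apoa2, Ahsg, Afp) summed to at most 4.29 CPM, and Kl and Apob of the choroid plexus and yolk sac list were at 0 throughout. Folr1, another gene of that list, was detected in all 6 groups, and the list summed to at most 35.9 CPM in any sample. Its median was 3.81 CPM in WT and 18.8 in KO endometrium, and 4.28 in WT and 12.2 in KO uterus. The part of these cell types in the Ttr values was not tested.

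Rbp4, the retinol carrier of plasma, had counts in all 42 samples, as did Aldh1a2. Its means were 75.7 ± 38.1 CPM in uterus of WT mice and 55.6 ± 32.7 in that of KO mice, 47.1 ± 34.2 and 29.2 ± 18.5 in endometrium, and 34.1 ± 14.4 and 16.3 ± 5.60 in myometrium. The KO mean was lower in each tissue, with log2 fold changes of -0.48 ± 0.34, -0.76 ± 0.42 and -1.04 ± 0.32 in that order. Myometrium showed the clearest separation, with 15.2, 34.9 and 52.0 CPM (lowest, median, highest) in WT and 8.30, 15.8 and 25.8 in KO. There 5 of 7 WT mice lay above every KO mouse.

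That myometrial difference of Rbp4 was again found in plate rows A to C, where the log2 fold change was -1.31. In rows D to F it was -0.11, because the WT mice there, numbers 10 and 12, were the lowest WT mice at 15.2 and 19.8 CPM. In uterus and endometrium the log2 fold changes within rows A to C (-0.31 and -0.67) and within rows D to F (-0.44 and -0.82) had the same sign. Leaving out WT mouse 8 moved the uterine value to -0.24 and the endometrial value to -0.38.

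Fat also makes Rbp4, and adipocyte markers (Adipoq, Plin1, Cidec, Lep, Retn and Cfd) appeared in a few WT samples. They summed to 285 CPM in the uterus of WT mouse 1, 121 and 73.7 in the endometrium of WT mice 3 and 8, and 234 in the myometrium of WT mouse 8, and all 6 were at 0 in KO uterus. KO endometrium and myometrium held at most 3.28 CPM of them. Rbp4 in those 4 samples was 89.6, 47.0, 112 and 51.9 CPM. In the uterus of WT mouse 8 Rbp4 was at 146 CPM and all 6 adipocyte markers were at 0. The part of fat in the Rbp4 values was not tested. Leukocyte markers (Ptprc, Cd68, Lyz2 and Cd3e) summed to 216 to 395 CPM in the uterus of WT mice and 98.7 to 484 in that of KO mice. Their median was 182 CPM in WT and 264 in KO endometrium, and 145 in WT and 207 in KO myometrium, where they ranged from 114 to 244 and from 91.3 to 263. Their part in the Rbp4 values was not tested. Between layers Rbp4 was not past the threshold, with log2 fold changes of 0.55 ± 0.37 in WT and 0.83 ± 0.37 in KO. Without the endometrium sample of WT mouse 8 the WT value was 0.21.

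Stra6, the receptor for Rbp4, was a gene of the endometrium at a low level. It measured 1.20, 11.4 and 35.0 CPM (lowest, median, highest) in WT endometrium and 2.82, 7.92 and 38.9 in KO endometrium. In myometrium 4 of 7 WT mice and 2 of 7 KO mice had none, and the highest were 7.18 and 9.89 CPM. The log2 fold change of endometrium over myometrium was 2.21 ± 0.71 in WT and 2.25 ± 0.68 in KO, and the endometrium was higher in 7 of 7 WT and 6 of 7 KO mice. The exception was KO mouse 13, with 8.79 CPM in its muscle-rich endometrium and 9.89 in its myometrium. The KO log2 fold change was 2.30 without that endometrium sample and 3.16 without mouse 13 in both layers.

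Few counts lay behind Stra6, and its layer call was the least firm of the 4. It fell below the threshold in WT when mouse 7, 8 or 12 was left out and in KO when mouse 4, 9 or 11 was left out. Between genotypes the log2 fold change was -0.42 ± 0.78 in uterus and -0.01 in endometrium. In myometrium the value of 0.01 rested on few counts, and it ran from -0.86 without KO mouse 13 to 0.92 without WT mouse 12. Its sign turned to 0.29 in uterus and 0.66 in endometrium without WT mouse 12, the highest WT mouse in both tissues. In the annotation Stra6 overlaps Ccdc33 on the opposite strand and Gm16131 on its own strand, and Ttr overlaps Gm16090 on the opposite strand, and the use of strand in counting was not stated.

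Crabp2, which hands retinoic acid to its nuclear receptor, had, like Aldh1a2, a higher mean in KO than in WT in every tissue. In myometrium this rested on 9 WT and 17 KO counts, at 2.57 ± 6.80 and 3.95 ± 5.06 CPM (log2 fold change 0.89 ± 0.94). Within plate rows A to C the WT mean there was higher, at 3.60 against 0.553 CPM, and within rows D to F lower, at 0 against 6.49. In WT uterus Crabp2 was at 0 in 4 of 7 mice, and the others were mouse 10 at 1.09, mouse 12 at 14.6 and mouse 5 at 15.9 CPM. All 7 KO mice had it in uterus, at 1.93, 7.26 and 34.7 CPM in the lowest, median and highest. The means were 4.52 ± 7.36 and 14.1 ± 13.5 CPM, a log2 fold change of 1.57 ± 0.81. Only 2 KO mice, 11 and 14, lay above every WT mouse.

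In endometrium Crabp2 measured 1.27, 2.95 and 10.5 CPM in WT and 2.51, 10.6 and 37.6 in KO. The means were 4.46 ± 3.38 and 15.5 ± 13.4, a log2 fold change of 1.69 ± 0.60, and 4 KO mice lay above every WT mouse. The value was 2.39 within plate rows A to C and 0.89 within rows D to F. In uterus it was 1.20 within rows D to F, and in rows A to C the gene did not pass the filter, with means of 3.18 CPM in WT and 8.57 in KO.

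A single library decided the layer value of Crabp2 in WT mice. In WT myometrium mouse 5 had 18.0 CPM, in the sample with the most epithelial RNA, and the other 6 had none. The log2 fold change of endometrium over myometrium was 1.01 ± 0.88 with that sample. Without it WT myometrium was at 0 counts in 6 samples. The endometrium of all 7 WT mice held 22 counts, a mean of 4.46 CPM, with only 2 samples over the floor. That mean was 5.99 times a level of 3 counts spread over the 6 myometrium samples together (0.744 CPM). Both values lie near or under the floor of a single library. With that sample left out edgeR put Crabp2 past the threshold, with 1816 of 13093 genes called over all. Crabp2 passed the filter there only through the endometrium samples, so this was no test, and it is not counted as called. In KO mice the log2 fold change was 1.80 ± 0.69. There Crabp2 was past the threshold with the mouse as a block, and also without KO mouse 13, which made 5 members called in each case. Within a mouse the endometrium was higher in 6 of 7 WT and 6 of 7 KO mice. Crabp1, the other cytosolic binder, stayed near the floor, at group means of 0.73 to 2.11 CPM and at most 5 counts in any sample, and its differences were not detectable at this depth.

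Aldh1a2, a retinaldehyde dehydrogenase known from uterine stroma, was detected in all 42 samples. It averaged 61.0 ± 20.3 CPM in the uterus of WT mice and 83.5 ± 51.8 in that of KO mice, 57.0 ± 33.1 and 121 ± 75.4 in endometrium, and 19.7 ± 12.6 and 27.2 ± 18.3 in myometrium. Every mouse of either genotype had more in endometrium than in myometrium. The log2 fold change between layers was 1.58 ± 0.36 in WT and 2.15 ± 0.42 in KO, and the call held whichever mouse was left out. The interaction, the difference between these values, was 0.57 ± 0.60.

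The summed stromal markers (Pdgfra, Dcn, Lum, Col1a1 and Col3a1) were at 1302 to 2254 CPM in WT endometrium and 4094 to 6780 in WT myometrium. In KO they were at 725 to 2272 and 3651 to 9511 CPM. Pdgfra alone averaged 43.3 CPM in WT endometrium and 45.6 in WT myometrium, and 47.6 and 68.7 in KO. Mesothelial markers (Msln, Upk3b, Upk1b, Wt1 and Lrrn4) were at most 77.5 CPM in endometrium and 95.8 in myometrium. The part of stroma and mesothelium in the Aldh1a2 values was not tested.

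Between genotypes Aldh1a2 was higher in the mean of KO endometrium, where the lowest, median and highest mice measured 33.3, 108 and 241 CPM against 32.5, 40.6 and 124 in WT. KO mice 4, 11 and 13 lay above every WT mouse and the rest were within the WT range. The log2 fold change was 1.08 ± 0.39, with 0.77 in plate rows A to C and 0.93 in rows D to F. It was 0.95 without KO mouse 13, whose 3 endometrium libraries gave 171, 184 and 192 CPM before scaling. In uterus (0.44 ± 0.33) and myometrium (0.51 ± 0.40) the difference was near its error, and the ranges of the genotypes overlapped.

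Aldh1a1 was measured by few molecules, with 1 to 21 counts per group in total. In myometrium WT mouse 3 had the only WT count, while every KO mouse had 1 to 4 counts, 1.44 to 9.85 CPM. The total was 1 count in WT and 15 in KO. No fold change is given, since the WT total lies below 3 counts. The log2 interaction value of Aldh1a1 was -3.56 ± 1.10, and it rests on that same count. Aldh1a3 had 10 counts in all 42 samples together, from 0 to 4 in a group, and could not be compared.

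Cyp26a1, the enzyme that clears retinoic acid, had a high level in uterus and endometrium and a low level in myometrium. It measured 17.3, 68.7 and 109 CPM (lowest, median, highest) in WT uterus and 18.6, 47.0 and 222 in WT endometrium. In WT myometrium the same values were 0, 4.69 and 26.0 CPM. The endometrium exceeded the myometrium in 7 of 7 WT and 6 of 7 KO mice, the exception being KO mouse 11 with 1 count in each. The log2 fold change was 3.05 ± 0.56 in WT and 2.57 ± 0.74 in KO, and the KO call, unlike the WT call, was lost without mouse 4.

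KO uterus split widely in Cyp26a1. KO mice 2, 4 and 14 were at 97.5, 121 and 96.2 CPM, within or just above the WT range. KO mice 6, 9, 11 and 13 were at 7.53, 6.57, 0 and 15.4 CPM, each below every WT mouse. The means were 64.7 ± 29.2 CPM in WT and 49.1 ± 52.9 in KO, a log2 fold change of -0.35 ± 0.58 that says little, because the SD of KO mice exceeded their mean.

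The order of these mice was much the same in endometrium. KO mice 2, 4 and 14 had 89.4, 114 and 40.9 CPM of Cyp26a1 there, and KO mice 6, 9, 11 and 13 had 3.03, 23.0, 1.34 and 11.3. The WT mouse with the least was number 12 in both uterus and endometrium, at 17.3 and 18.6 CPM. The endometrial means were 78.9 ± 69.6 in WT and 40.4 ± 44.4 in KO, and the log2 fold change of -0.98 ± 0.62 was 0.12 in plate rows A to C and -2.71 in rows D to F, which held KO mice 9, 11, 13 and 14. In uterus it was 0.21 in rows A to C and -1.01 in rows D to F.

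Gland markers varied among the same mice. In uterus they summed to 1867, 1005 and 478 CPM in KO mice 2, 4 and 14, to 58.8, 131 and 245 in KO mice 6, 9 and 11, to 909 in KO mouse 13 and to 318 in WT mouse 12. WT mouse 5 had 238 CPM of gland markers and 45.2 CPM of Cyp26a1. The part of the glands in the Cyp26a1 values was not tested. Epithelial markers in the 4 low KO mice were at 775 to 2417 CPM in uterus, the range of the whole KO group. Their part in the Cyp26a1 values was not tested.

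**Figure D2:**
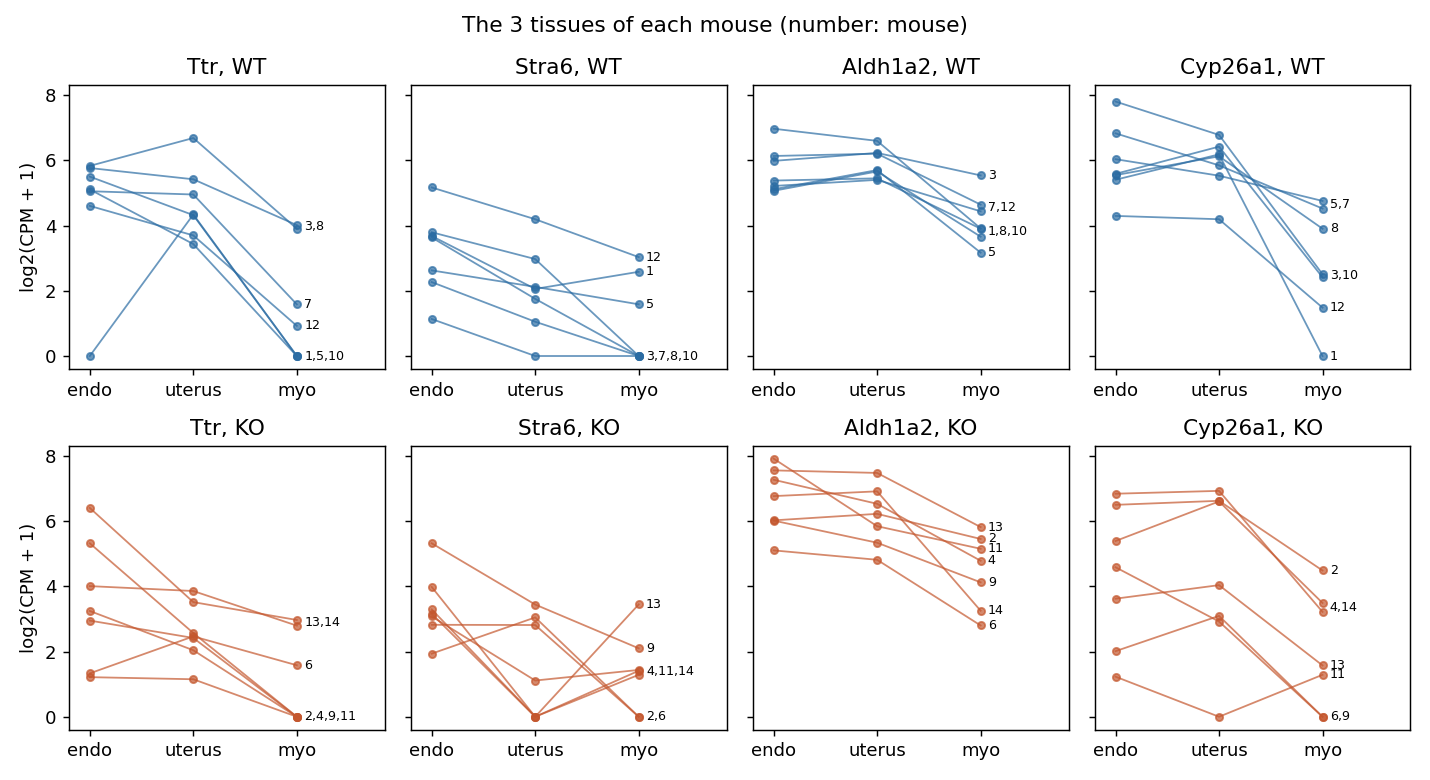
Level of Ttr, Stra6, Aldh1a2 and Cyp26a1 in the endometrium, whole uterus and myometrium of each mouse, as log2(CPM + 1), with a line for each mouse and its number at the right (WT above, KO below). Lines fall towards the myometrium for most mice, and the Cyp26a1 lines of KO mice 6, 9, 11 and 13 start lower than those of KO mice 2, 4 and 14.

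By order of mean log2(CPM + 1), Ttr ran from WT uterus over WT endometrium, KO endometrium and KO uterus to WT and KO myometrium. Aldh1a2 ran from KO endometrium over KO uterus, WT uterus and WT endometrium to KO and WT myometrium. Its step from WT endometrium to KO myometrium, 1.21, was the only step between neighbours, over all 9 genes, that exceeded the larger SD of the pair. Cyp26a1 was ordered WT endometrium, WT uterus, KO uterus, KO endometrium, WT myometrium and KO myometrium. For Stra6 both endometrium groups came first, followed by both uterus groups. For Crabp2 the order began with KO endometrium and KO uterus and ended with WT uterus and WT myometrium.

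**Figure D3:**
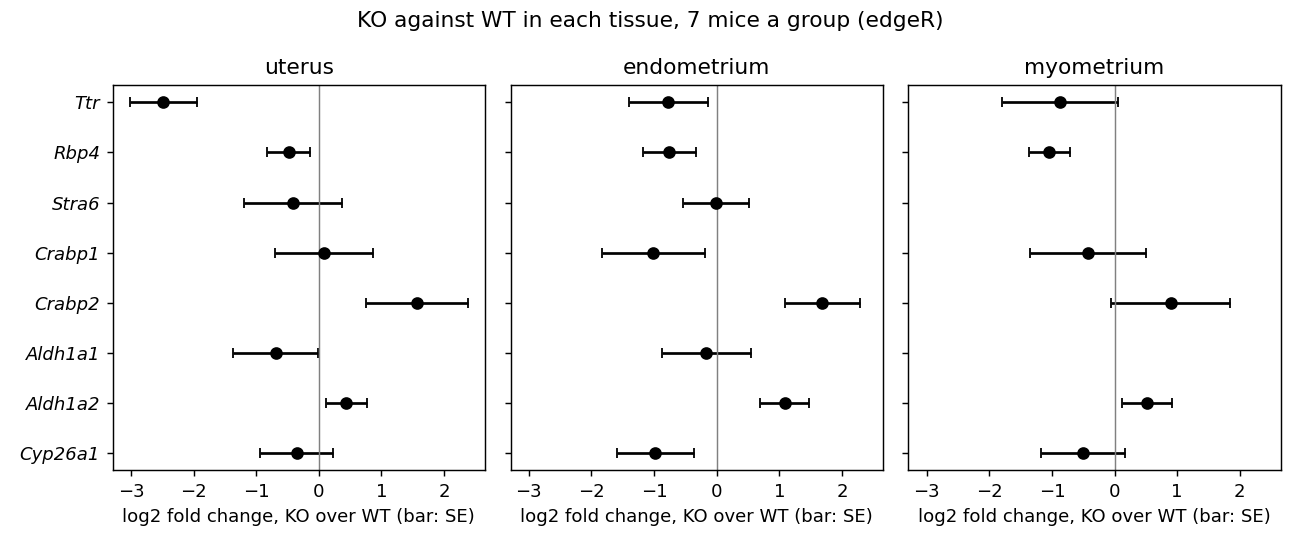
Log2 fold change of KO over WT (edgeR, bars are 1 SE, 7 mice per group) for the members in uterus, endometrium and myometrium. Aldh1a3 did not pass the filter, and in myometrium Aldh1a1 (1 WT count) and Stra6 (a value near 0 with no usable error) are left out. Ttr in uterus, at -2.49, lies farthest from 0, and its counts there were among the values used to choose the genes.

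The wider pathway was followed in 51 further genes, of which 49 had a row and 32 to 38 passed the filter in a comparison. Between layers 6 of 32 were called in WT (4 higher and 2 lower in endometrium) and 10 of 33 in KO (7 higher and 3 lower), against the 13.2% and 19.3% of all genes given above. Between genotypes, and in the interaction, 0 were called by edgeR or DESeq2. At an unadjusted p under 0.05 (edgeR) there was 1 of 33 in uterus and 2 of 34 in endometrium. There were 2 of 32 in myometrium and 4 of 38 in the interaction. The shares of all genes were 5.64%, 5.20%, 4.22% and 4.60% in that order. The smallest p-values belonged to Rbp7 in uterus (log2 fold change 1.02 ± 0.46, adjusted p = 0.836), Bco1 in endometrium (-2.31 ± 0.82, adjusted p = 0.887), Adh1 in myometrium (0.76 ± 0.27, adjusted p = 0.990) and Tgm2 in the interaction (1.46 ± 0.55, adjusted p = 0.979), all by edgeR.

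Lrat, which stores retinol as esters, was higher in endometrium in both genotypes. It measured 56.6 ± 57.8 CPM in WT endometrium and 11.2 ± 16.0 in WT myometrium (log2 fold change 2.45 ± 0.63, edgeR adjusted p = 0.00928). In KO it was at 44.8 ± 29.3 and 6.62 ± 3.25 (2.70 ± 0.41, adjusted p = 5.19e-05). The call in WT was lost without mouse 7.

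Enzymes between retinol and retinal went in both directions. The alcohol dehydrogenase Adh1 was lower in endometrium, at 67.3 ± 28.8 CPM against 178 ± 23.7 in myometrium in WT (log2 fold change -1.37 ± 0.27, edgeR adjusted p = 0.000783) and 104 ± 68.0 against 299 ± 235 in KO (-1.51 ± 0.40, adjusted p = 0.00931). Both calls were lost with spike-in scaling, with values of -1.08 and -1.02. Rdh12, a retinal reductase, was higher in WT endometrium (2.21 ± 0.59, edgeR adjusted p = 0.0114), a call lost without mouse 7, and Rdh10, the retinol dehydrogenase that feeds retinoic acid synthesis, was higher in KO endometrium (1.32 ± 0.40, adjusted p = 0.0203), a call lost without mouse 4 or 6.

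Among the genes that bind or metabolise retinoic acid, Fabp5, a fatty acid binding protein that also carries retinoic acid, was higher in endometrium in WT (1.63 ± 0.52, edgeR adjusted p = 0.0358) and KO (1.47 ± 0.49, adjusted p = 0.0349), calls that were lost when any of several mice was left out. The cytochrome P450 Cyp2s1 was higher in both (2.74 ± 0.70, adjusted p = 0.00835 in WT and 1.96 ± 0.48, adjusted p = 0.00542 in KO). Cyp26b1, the close relative of Cyp26a1, had means of 0 to 1.68 CPM in the 6 groups.

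The receptor list held Rara, Rarb, Rarg, Rxra, Rxrb, Rxrg and Ppard. Of these, 0 of 5 in the fit were called between layers in WT, with log2 fold changes of -0.51 to 0.41. In KO 1 of 6 was called, Rara (1.54 ± 0.37, edgeR adjusted p = 0.00396), within a range of -1.58 to 1.54. Between genotypes the receptors ranged from -0.54 to 0.17 in uterus, from -0.13 to 0.64 in endometrium and from -0.75 to 1.06 in myometrium, with 0 called.

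Textbook retinoic acid responsive genes did not move together between the layers. Rarres2 (chemerin) was lower in endometrium, at 238 ± 109 CPM against 811 ± 405 in WT myometrium (-1.75 ± 0.31, edgeR adjusted p = 0.000283) and 248 ± 99.3 against 901 ± 192 in KO (-1.85 ± 0.24, adjusted p = 7.95e-06). The transglutaminase Tgm2 was higher in KO endometrium (1.97 ± 0.44, adjusted p = 0.00262), with a highest value of 1854 CPM against a median of 290.4. Of the 11 genes on this list, which includes Lrat, 6 passed the filter in either genotype, with 1 higher and 1 lower in WT and 2 higher and 1 lower in KO.

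**Figure D4:**
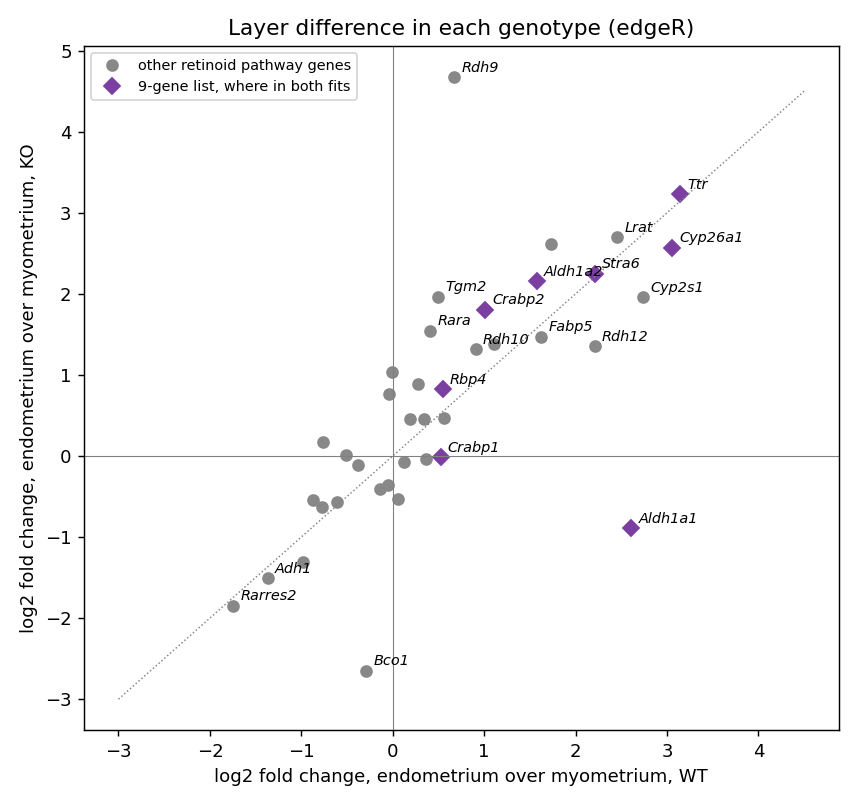
Log2 fold change of endometrium over myometrium in KO mice against that in WT mice (edgeR) for members (diamonds) and other pathway genes (circles) that passed the filter in both; named circles passed the threshold in at least 1 genotype, and the dotted line marks equality. Ttr, Stra6, Aldh1a2 and Cyp26a1 lie at the upper right, and Aldh1a1, which rests on a single count in WT myometrium, lies apart.

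Across the 42 samples, the genes with the most similar pattern were sought among 6628 genes by Spearman's rho, as a description, since the 3 tissues of a mouse and the layers are shared by all the points. For Ttr they were Pla2g7 (0.774), Hopx (0.732) and Krt23 (0.729). For Rbp4 they were Ccl6 (0.803), Tyrobp (0.765) and C1qa (0.737), and for Stra6 Itpr2 (0.701), Rhou (0.637) and Wnk4 (0.631). Aldh1a2 was nearest to Lbp (0.844), Tmed6 (0.842) and Nucb2 (0.811). Cyp26a1 was nearest to Sult1d1 (0.803), F3 (0.787) and Acsl4 (0.775), and Crabp2 to Hgfac (0.769), Sh2d4a (0.764) and Fxyd4 (0.714). Among the members themselves the highest rho was 0.528, between Aldh1a2 and Cyp26a1, and Rbp4 with Aldh1a2 gave 0.00478.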

How the data were processed

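The authors deposited raw counts of molecules per gene. Per the labels, 10 ng of RNA with ERCC spike-ins from each sample entered a single 46-plex STRT pool, which captures 5′ ends. Per the methods of the study, reads were joined by molecular identifier, aligned with TopHat to mm9 and counted with Homer over UCSC genes. The submitters' processing notes name HTSeq instead, and the difference was not resolved. Handling of multimapping reads was not given in the sources used here.

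Libraries were grouped by their labels. Repeat libraries of a mouse were summed. The test was the quasi-likelihood F test of edgeR 4.0.16 (R 4.3.3, TMM factors, no covariate) on genes that reached 1 CPM in 5 or more of the samples compared, with a threshold of 0.05 on the adjusted p. The SE was the absolute log2 fold change divided by the square root of F. DESeq2 1.42.0 was an alternative, and the code was tested on simulated data. Members, lists and alternatives were chosen with earlier results of these data known. Named pathway genes were those called at an average of at least 5 CPM, at most 6 per direction, all receptors as a range, or the gene with the smallest p where none was called. Genes were ranked for likeness at a mean of at least 10 CPM. Floors cover counting error only.

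The mouse number pairs layers of an animal. Deviations from group means correlated within a mouse at a mean r of 0.138 in WT (0.0593 to 0.216) and 0.187 in KO (0.119 to 0.284), over 6628 genes, and between different mice at -0.0236 and -0.0309.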

Additional observations from a re-analysis of the deposited data

Results flagged for a closer look

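A sample stood far from the other 6 of its group in 2 of 42 groups of 7 mice examined for the 9 genes, and 12 further groups were not examined because all their samples were at or under the floor. The cutoff would flag about 5% of groups of normally distributed values by chance. Groups with many samples at 0 counts are not so distributed, and that rate does not hold for them. Ttr in WT endometrium was lowest in mouse 5, at 0 on the log2(CPM + 1) scale, and the mean of the other 6 was 40.4 ± 12.9 CPM. Crabp2 in WT myometrium was highest in mouse 5, at 4.25 on the same scale, with all 6 other mice at 0. The part of the epithelial and gland RNA of mouse 5 in these values was not tested.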

How the results depend on the processing

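Alternatives were DESeq2, spike-in scaling, relative log expression factors, no filter or a filter at 10 CPM, a single repeat library per mouse, all 6 groups in a single fit, the mouse as a block, plate rows apart and samples left out. Leaving out each mouse in turn was added after the data had been seen. No alternative reversed a called result. In KO layers 2 members (Aldh1a2 and Cyp26a1) were called with the filter at 10 CPM, which tests fewer genes (2020 of 7329 called). Ttr and Stra6 did not pass that filter and were not tested there. With a mouse left out 2 to 5 members were called, while 1852 to 2266 genes were called over all. Without mouse 4 it was 2 members (Ttr and Aldh1a2), with 1852 of 12550 genes over all. The number of pathway genes called in KO layers was 18 (16 higher and 2 lower) with spike-in scaling, which called 3049 of 12969 genes over all. That scaling moved the median over all genes (log2) to 0.21 in WT layers, 0.58 in KO layers, -0.37 between genotypes in uterus and 0.27 in endometrium. A replicate block for the mouse called 4 members in WT layers and 5 in KO layers. Pathway genes called were 7 and 10, Dhrs3 being gained in WT and Bco1 lost in KO. Over all genes the block called 1850 of 13227 in WT layers and 2776 of 12969 in KO layers. With the block 0 members and 0 pathway genes were called in the interaction, and 10 of 14314 genes over all. Between genotypes 0 members and 0 pathway genes were called in every alternative run, while over all genes up to 7 were called, the 7 being in endometrium with all 6 groups in a single fit. A member at 0 to 3 counts in most samples, such as Crabp1, Aldh1a1 and Aldh1a3, was limited by depth.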
